A study of Mus musculus with 6 samples.

Results

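A20 cells, a B lymphoma line from the BALB/c mouse, were compared after 24 h and after 12 h of TGF-β, both in the presence of SP600125. The comparison has 1 array a side, 2 of the 6 arrays of the series, and both were taken by their sample titles. The other 4 arrays held cells given TGF-β without SP600125 for 24 h or for 12 h, cells kept with SP600125 for 24 h without TGF-β, and untreated cells, and the titles of the arrays without SP600125 name DMSO. Every condition had 1 array, so a difference between 2 arrays has no replicate check and no test. The labels give the hours for TGF-β in the presence of SP600125 and not the time of adding the drug, so that longer TGF-β and longer SP600125 cannot be told apart within this pair.

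TGF-β is a cytokine that binds a pair of receptor kinases, which phosphorylate Smad2 and Smad3. These enter the nucleus with Smad4 and switch genes on or off, and in B cells the cytokine is known for slowing division, promoting cell death and directing class switching to IgA. The receptors also feed into the kinase JNK, which phosphorylates Jun and other AP-1 proteins, and SP600125 is an ATP-competitive inhibitor of JNK that also acts on other kinases.

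The values are deposited linear intensities, called signals here, of 45101 probe sets on an Affymetrix whole-genome mouse array. A gene was read from its brightest probe set, signals under 74.2 (the 50th percentile) were set to that floor, and 13059 genes were above it on at least 1 array. Of these genes 11312 were above the floor on the 24 h array with SP600125 and 10872 on the 12 h array with SP600125, and the array medians were 80.9 and 76.1. The number of arrays limits the precision of every value. The cells carried B cell markers on both arrays: Cd79b, a part of the B cell receptor, read 15784.3 at 24 h and 15552.8 at 12 h with drug, and Ms4a1, which encodes CD20, had 7083.1 at 24 h and 6915.1 at 12 h. The T cell receptor complex gene Cd3e had 106.1 at 24 h and 113.2 at 12 h, and the macrophage enzyme gene Lyz2 had 96.8 at 24 h and 58.9 at 12 h. Summed signals of the T and NK cell list were 1296.2 on the 24 h and 1081.3 on the 12 h drug array, against 972.0 to 1069.2 on the other 4 arrays, and for the myeloid list they were 1773.0 and 1616.6, against 1261.3 to 2979.7. Above the floor on any array were 10 of 18 T and NK cell genes and 9 of 18 myeloid genes. Fibroblast genes summed to 1127.7 on the 24 h and 923.9 on the 12 h drug array, against 755.8 to 1175.2, and erythroid genes to 754.6 and 633.5, against 518.8 to 669.2. No member of these 4 lists was at least 2-fold different.

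Control probe sets set the 24 h array with SP600125 apart from the rest. Its 3′ probe set for 18S ribosomal RNA read 5878.2, against 846.6 on the 12 h array with drug and 506.5 to 881.5 over all 5 other arrays. The 5′ and middle 18S probe sets were high together with it, at 3706.5 and 3288.9 on the 24 h array and 448.4 and 659.3 on the 12 h array with drug, so the 3′ to 5′ ratio of 18S was 1.59 at 24 h, 1.89 at 12 h and 1.51 to 2.05 over the 5 arrays without the 24 h one. The ratio of 3′ to 5′ signal of mRNA controls is a measure of how much of the cDNA reached the 5′ end of a transcript. For β-actin the ratio was 1.89 on the 24 h drug array and 1.32 on the 12 h drug array, against 1.25 to 1.51 over the 5 arrays, and for GAPDH it was 0.976 and 0.798, against 0.777 to 0.876. The transferrin receptor control reached 7.35 on the 24 h drug array and 4.32 on the 12 h one, against 3.93 to 6.24. The 5′ signal behind the 7.35 was 52.5, under the floor of 74.2 that was set for genes. For pyruvate carboxylase the ratio was 2.02 at 24 h and 1.96 at 12 h, inside the 1.29 to 2.54 of the other arrays. The 24 h array was thus outside the range of the other 5 arrays in the 3 18S signals and in 3 of the 4 mRNA ratios. Of these ratios, that of the transferrin receptor rests on a 5′ signal under the floor.

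**Figure D1:**
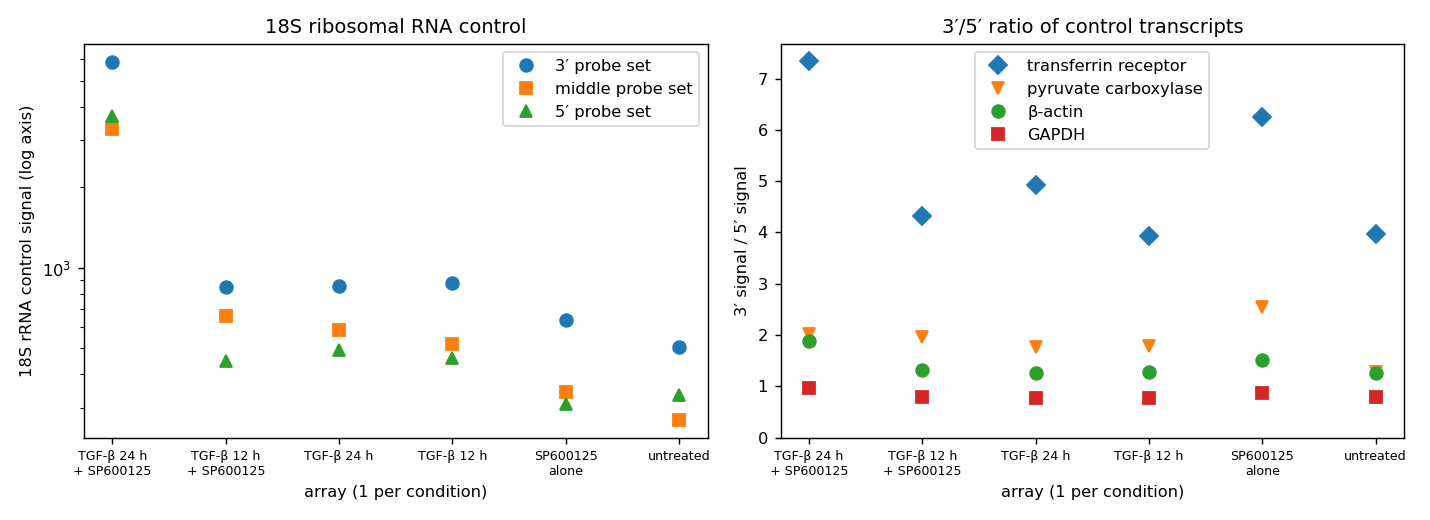
Signals of the 3 probe sets for 18S ribosomal RNA (left, log axis) and the 3′ over 5′ signal ratio of 4 control transcripts (right), 1 point for each of the 6 arrays. The 24 h array with SP600125 is highest in all 3 18S signals and in the ratios of transferrin receptor, β-actin and GAPDH, with pyruvate carboxylase inside the range of the other arrays. The transferrin receptor ratio of that array rests on a 5′ signal of 52.5, under the floor of 74.2.

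Within single transcripts, the difference depended on the probe set. Tfrc, the transferrin receptor that brings iron into dividing cells, has 3 gene probe sets, and the brightest read 5910.6 at 24 h and 7649.3 at 12 h with drug, a log2 difference of -0.37. The other probe sets of Tfrc gave -1.59 and -1.79, and its 3′, middle and 5′ control probe sets gave -1.42, -1.30 and -1.68, the last to the floor. Without drug the same 3 gene probe sets gave -0.21, -0.97 and -0.94. All of these were lower at 24 h in both settings, but with drug the size ran from -0.37 to -1.79 by probe set. For Actb, which encodes β-actin, the brighter gene probe set was at -0.03 and a dimmer one at 1.07 with drug, while the 5′ control probe set was at -0.58 and the 3′ one at -0.06. Where along the transcript a gene's probe sets lie was not used here, so the 30 genes with the largest differences and the main lists are also given by their other probe sets, where those were above the floor on an array of the pair. The part of the RNA or labelling state of the 24 h array in any single gene's difference was not tested.

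At 24 h against 12 h with SP600125, 241 genes were at least 2-fold higher (1.85% of the 13059 genes) and 152 were at least 2-fold lower (1.16%). The pair without drug, which shares no array with it, had 191 higher (1.46%) and 100 lower (0.766%), and SP600125 alone against untreated cells, a further pair with no shared array, had 371 higher (2.84%) and 153 lower (1.17%). With drug, higher genes made up 61.3% of the calls, but 46.6% (163 higher and 187 lower) when every array was divided by its median. The 241 higher genes had a median signal of 261.0 at 24 h and 98.9 at 12 h, and 156 of them were above the floor on both arrays. The 152 lower genes had 108.25 at 24 h and 263.55 at 12 h, and 105 were above the floor on both. Many calls thus lay near the floor. Among genes above the floor on both arrays, Klf10, with a log2 difference of 1.0002, was the last inside the 2-fold limit and Morn1, with 0.9991, the first outside it. On the lower side they were Cd84, with -1.0006, and Ifrd2, with -0.9987.

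Most genes past 2-fold were past it in the same direction in neither of the other pairs, though the shared part was above the share of all genes called there. Of the 241 higher genes, 29 were also higher without drug, which is 12.0% of the 241 and 15.2% of the 191, against 1.46% of all genes, and 37 were higher in SP600125 alone, which is 15.4% of the 241 and 9.97% of the 371, against 2.84% of all genes. Both held for 8 genes and neither for 183 (75.9%). Of the 152 lower genes, 9 were lower without drug (5.92% of the 152, 9.0% of the 100, against 0.766% of all genes), 10 were lower in SP600125 alone (6.58% of the 152, 6.54% of the 153, against 1.17% of all genes), and 133 (87.5%) were in neither. Some genes were past 2-fold in the opposite direction elsewhere. Of the 241 higher genes, 5 were lower without drug (2.07%, against 0.766% of all genes) and 3 in SP600125 alone (1.24%, against 1.17%). Of the 152 lower genes, 6 were higher without drug (3.95%, against 1.46% of all genes) and 8 in SP600125 alone (5.26%, against 2.84%). Over the 9112 genes above the floor on all 6 arrays, the differences with drug correlated with those without drug at r = 0.384 (Spearman's rho 0.380) and with those of SP600125 alone at r = 0.315 (rho 0.319). These are correlations across genes of single arrays, and genes are not independent replicates.

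**Figure D2:**
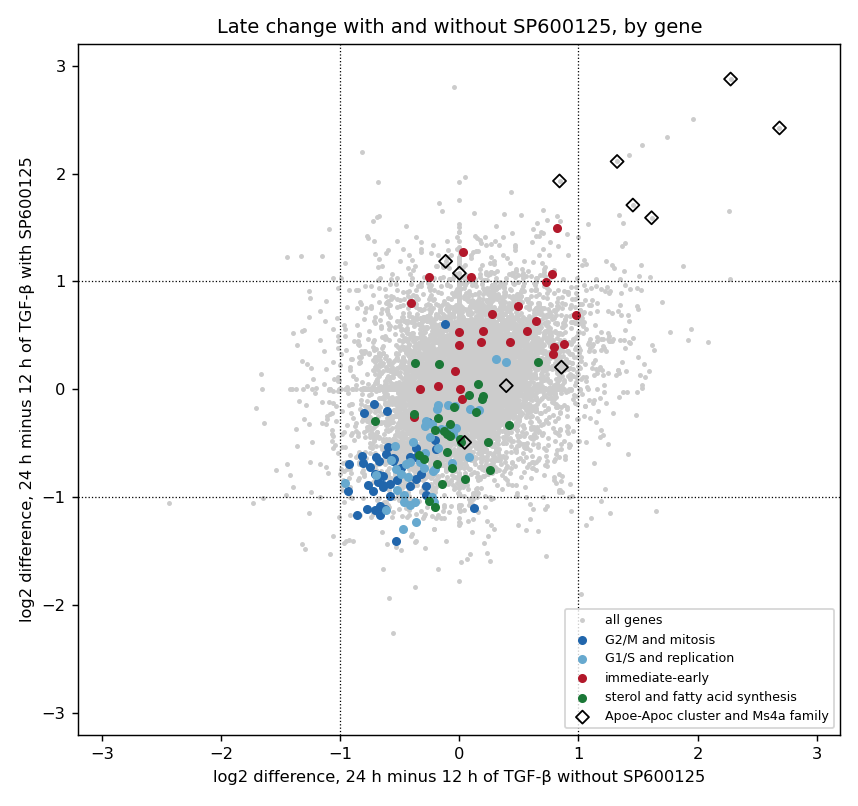
Log2 difference of 24 h minus 12 h of TGF-β for each of 13059 genes with SP600125 (vertical) and without SP600125 (horizontal), from 4 arrays. Dotted lines mark 2-fold. Genes of G2/M, mitosis, G1/S and replication lie mostly below 0 in both settings. Of the Ms4a family and the Apoe-Apoc cluster, Ms4a6c, Ms4a4c, Ms4a6b, Apoc1 and Apoc2 lie past 2-fold in both settings, at the upper right. Others, such as Ms4a1, Ms4a10 and Apoc4, do not.

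A test could be had only for the difference between 24 h and 12 h averaged over both drug settings, from limma's additive model on all 6 arrays. It called 2 genes risen (0.0171% of 11730) and 0 fallen (0.0%), with 977 higher and 817 lower at an unadjusted p under 0.05. Ms4a6c, a membrane-spanning 4-domain gene of the CD20 family, rose by 2.58 ± 0.25 (log2, standard error from limma, adjusted p = 0.0442). It read 1997.0 at 24 h and 272.2 at 12 h with drug, 1132.5 at 24 h and 233.6 at 12 h without drug, 88.6 with SP600125 alone and 19.4 in untreated cells. Both 24 h arrays were thus above both 12 h arrays, which were above both arrays without TGF-β, although the other Ms4a6c probe set gave only 0.66 with drug. H2ac19, which encodes a histone H2A, rose by 1.48 ± 0.13 (log2, adjusted p = 0.0410 by limma). It read 3664.5 and 1197.1 at 24 h and 12 h with drug, 2266.8 and 895.1 at 24 h and 12 h without drug, 1337.8 with SP600125 alone and 943.1 in untreated cells, and its other probe set gave 0.87 with drug. Neither call was kept when any 1 of the 6 arrays was left out.

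The Ms4a family held 3 of the 15 genes that were highest in the pair. Its members encode 4-pass membrane proteins, and families here and in the next paragraphs (Ms4a, Apoe-Apoc, histones) were put together after their values were seen. Ms4a4c had 765.4 on the 24 h and 142.8 on the 12 h drug array, against 1307.6 at 24 h and 202.9 at 12 h without drug, and 43.1 and 40.9 with SP600125 alone and in untreated cells. Its log2 difference was 2.42 with drug (2.21 by its other probe set) and 2.69 without. Ms4a6b had 488.0 and 149.4 at 24 h and 12 h with drug, and 637.6 and 232.3 at 24 h and 12 h without drug. That is 1.71 with drug and 1.46 without, with the other Ms4a6b probe set at 0.33 with drug. Of 7 family members above the floor, 4 were at least 2-fold higher with drug (1.85% of all genes) and 3 without drug (1.46% of all genes), while Ms4a1 itself differed by 0.03 with drug and 0.39 without. The remaining member past 2-fold with drug was Ms4a3, with 156.5 at 24 h and 64.7, under the floor, at 12 h with drug. Ms4a3 was above the floor only on the 24 h array with SP600125, so it could not count as lower. Macrophages also express several of these genes and the apolipoproteins of the next paragraph. The macrophage receptor gene Csf1r had 355.6 at 24 h and 405.5 at 12 h with drug, and the part of other cells in these differences was not tested.

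Bhlhe40, a transcriptional repressor of the basic helix-loop-helix family and one of the listed TGF-β targets, was the highest of the Smad target list. It read 581.7 at 24 h and 102.2 at 12 h with drug, 288.5 and 68.9 at 24 h and 12 h without drug, 114.4 with SP600125 alone and 103.4 in untreated cells. Both 24 h arrays stood above all 4 other arrays. Against its own 12 h array the difference was 2.51 (log2) with drug and at least 1.96 without, and limma gave 2.23 ± 0.28 with an adjusted p of 0.0531, just short of the threshold. Of the 25 Smad target and feedback genes above the floor, 4 were at least 2-fold higher (2 under median scaling), against 1.85% of all genes, and 0 lower. The others were Gadd45b, a stress-induced regulator of MAP kinase signalling, at 1.44, Cdkn1a, the CDK inhibitor p21, at 1.04, and Klf10, a TGF-β-induced repressor, at the 2-fold limit. The inhibitory Smad gene Smad7 had 696.6 on the 24 h and 619.2 on the 12 h drug array, against 121.1 with SP600125 alone and 123.6 in untreated cells. Its late difference was 0.17, and both arrays of the pair were well above the arrays without TGF-β. The list median was 0.36 with drug and 0.15 without, against 0.03 and 0.00 over all genes, but with second-brightest probe sets the median over 13 Smad targets was 0.00 with drug.

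The apolipoprotein cluster of Apoe, Apoc1, Apoc2 and Apoc4, secreted lipid carriers, was at least 2-fold higher at 24 h with drug in all 4 genes and without drug in 2. The shares over all genes were 1.85% with drug and 1.46% without. Apoe had 1591.6 at 24 h and 417.4 at 12 h with drug, 472.4 and 263.8 at 24 h and 12 h without drug, 337.4 with SP600125 alone and 94.4 in untreated cells. Its log2 difference was 1.93 with drug, 0.84 without and 1.84 in SP600125 alone against untreated. Apoc1 had 4142.4 and 958.7 at 24 h and 12 h with drug, 1359.5 and 542.9 without drug, 605.4 with SP600125 alone and 33.0, under the floor, in untreated cells. Apoe and Apoc1 were thus highest where 24 h of TGF-β and the drug met, and each was also higher with the drug alone. Apoc2 differed by 1.59 with drug and 1.61 without. Apoc4 was at the floor on the 12 h array and was at least 1.19 higher with drug.

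Histone genes were 5 of the genes at least 2-fold higher with drug, out of 17 above the floor, and 2 of the genes higher without drug, against 1.85% and 1.46% of all genes. Messages of the replication-dependent histones end in a stem-loop in place of a poly(A) tail in dividing cells. H1f2, a linker histone, had 4517.4 at 24 h and 1001.1 at 12 h with drug, 1355.6 and 505.4 at 24 h and 12 h without drug, 593.7 with SP600125 alone and 328.0 in untreated cells. The difference was 2.17 with drug and 1.42 without, but the other H1f2 probe sets gave 2.40 and -0.53 with drug. H2aw differed by 1.67 with drug (1.78 by its other probe set) and 0.70 without, H2bc18 by 1.54 with drug, and H3c4 was past 2-fold from the floor, at 148.7 at 24 h and 15.4 at 12 h. H2ax, the histone variant phosphorylated at DNA breaks, went the other way, at -0.66 with drug and -0.27 without.

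Among the rest of the 15 highest genes, the E3 ligase subunit Ypel5 had 2832.7 at 24 h and 800.0 at 12 h with drug, 978.0 and 724.1 without drug, 682.9 with SP600125 alone and 167.7 in untreated cells. It differed by 1.82 with drug (1.01 by its other probe set), 0.43 without and 2.03 with the drug alone. Glt28d2 was at 2.27 with drug and 2.25 with the drug alone. Dixdc1, a Wnt pathway scaffold, was at 2.34 with drug and at least 1.74 without, but at 0.13 and 0.87 with drug by its other probe sets. Cysrt1 was at 2.80, Nr6a1 at 1.75, Elovl3 at 1.73 and Cfap61 at 1.65 with drug, and these 4 genes were between -0.17 and 0.00 without drug. All 4 were under 100 in signal on the 12 h array with drug. Without drug Nr6a1 was under the floor on both arrays, at 55.7 at 24 h and 72.0 at 12 h, so its 0.00 is set by the floor. Other probe sets gave 0.64 and 0.98 for Nr6a1 and -0.28 for Cfap61. The 5 genes with the largest differences from the floor were Tmc8, Gdf9, A330009N23Rik, Gkn3 and Zfp651, at least 1.64 to 2.20 higher, with 0.15 by the other Zfp651 probe set.

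**Figure D3:**
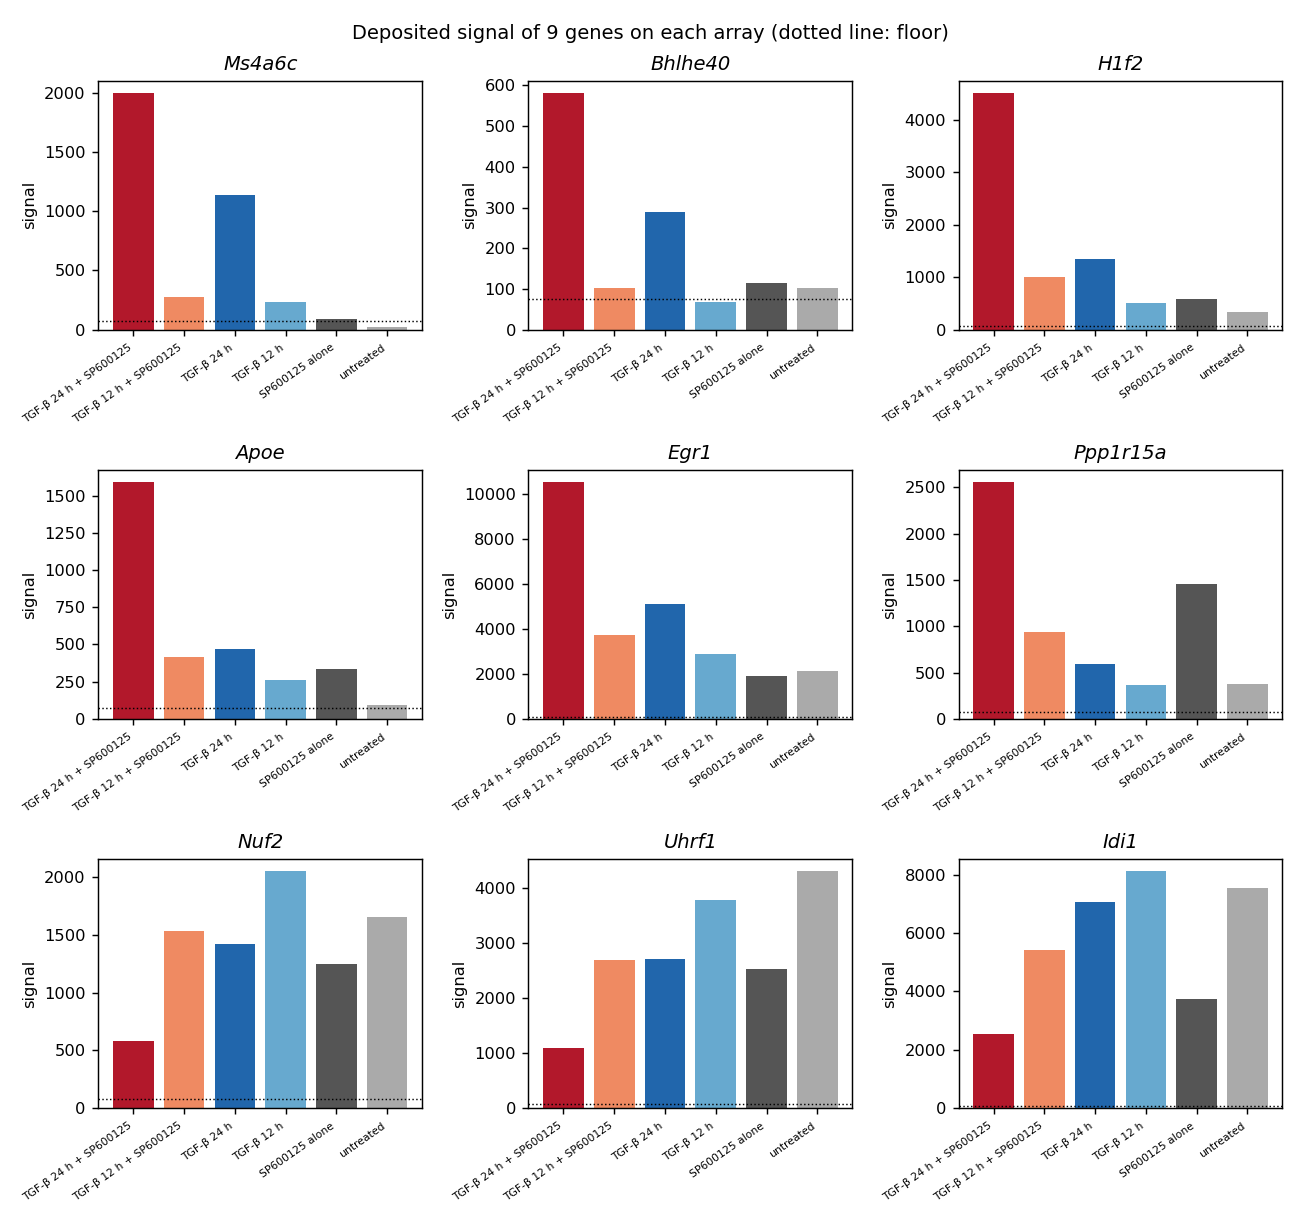
Deposited signal of 9 genes on each of the 6 arrays, 1 bar an array, with the floor of 74.2 as a dotted line. Ms4a6c and Bhlhe40 are high on both 24 h arrays, Ppp1r15a is higher with the drug at every TGF-β state, and Nuf2, Uhrf1 and Idi1 are lowest on the 24 h array with SP600125.

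Immediate-early genes, which growth factor and stress signals switch on within minutes, were higher at 24 h with drug than at 12 h with drug in 22 of 26 genes, with a median of 0.54, against 6861 of 13059 over all genes. Without drug 18 of 26 were higher, with a median of 0.19, against 6174 of 13059. At least 2-fold higher with drug were 5 of the 26 (2 under median scaling), against 1.85% of all genes, and without drug 0. Egr1, a zinc finger factor downstream of ERK, had 10513.3 at 24 h and 3722.0 at 12 h with drug, 5093.9 and 2892.9 at 24 h and 12 h without drug, 1887.9 with SP600125 alone and 2101.0 in untreated cells. Egr1 was highest on the 24 h array with drug, which was 2.82 times its 12 h array, against 1.76 times without drug. Fos, a partner of Jun in AP-1, had 643.4 and 266.1 at 24 h and 12 h with drug, and 299.6 and 293.3 without drug. Fos thus differed by 1.27 with drug and 0.03 without, and the nuclear receptor gene Nr4a1 by 1.04 with drug and -0.26 without. Ier2 was at 1.07 and Klf6 at 1.04 with drug, and other Klf6 probe sets ran from -0.52 to 0.71.

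The JNK and AP-1 list had a median of 0.35 with drug and 0.00 without, and 3 of its 19 genes were at least 2-fold higher with drug: Fos, Atf3 and Maff. Maff was above the floor only on the 24 h array with SP600125, so its difference is a bound and it could not count as lower. Jun differed by 0.35 with drug and 0.29 without, Junb by 0.78 and 0.94, and Mapk8, which encodes JNK1, by 0.18 and -0.01. For NF-κB targets the late difference was as large without drug as with it: the median over 21 genes was 0.43 with drug and 0.59 without. Nfkbiz, a nuclear IκB protein, had 839.2 and 368.9 at 24 h and 12 h with drug, and 470.3 and 200.5 at 24 h and 12 h without drug. Nfkbiz at 1.19, the NF-κB subunit gene Relb at 1.07, the caspase-8 inhibitor gene Cflar at 1.06 and the adhesion molecule gene Icam1 at 1.04 were the 4 genes past 2-fold with drug (1 under median scaling), and 3 were past it without drug. Over all genes 1.85% were at least 2-fold higher with drug and 1.46% without.

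Among stress-response genes, ATF4 targets were mostly at one level on both drug arrays, and 3 were higher at 24 h. ATF4 is the factor that amino acid shortage and endoplasmic reticulum stress switch on. Of its 31 targets 19 were at least 2-fold higher in SP600125 alone than in untreated cells (2.84% of all genes), with a median of 1.29. For 24 h minus 12 h with drug the median was 0.08, and 3 targets were at least 2-fold higher, against 1.85% of all genes. Ppp1r15a, the phosphatase subunit GADD34 that restarts translation, had 2559.2 at 24 h and 936.9 at 12 h with drug, 597.2 and 367.8 at 24 h and 12 h without drug, 1458.3 with SP600125 alone and 373.0 in untreated cells. Ppp1r15a was at 1.45, the stress factor Atf3 at 1.37 and the pseudokinase Trib3 at 1.01 in the pair with drug. Asns, the asparagine synthetase, had 18312.8 on the 24 h and 19278.9 on the 12 h drug array, against 20433.7 with SP600125 alone and 9116.4 in untreated cells, so both arrays of the pair were near the level of the drug alone. Of 18 p53 targets, 16 were above 0 with drug, against 6861 of 13059 over all genes. Their median was 0.39 with drug and 0.25 without drug. Gadd45a, a growth arrest gene, had 474.0 and 183.7 at 24 h and 12 h with drug, 223.2 and 146.5 without drug, 526.9 with SP600125 alone and 198.8 in untreated cells. Cdkn1a had 468.5 and 227.6 at 24 h and 12 h with drug, 140.3 and 138.3 without drug, 461.7 with SP600125 alone and 143.0 in untreated cells. For both genes the 24 h array with drug read about the level of the drug alone, and the 12 h array with drug lay below it.

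Genes of mitosis were lower at 24 h nearly throughout. Of 47 G2/M and mitosis genes, 46 were below 0 with drug and 46 without drug, with medians of -0.79 and -0.61, against 5137 of 13059 genes below 0 with drug over all genes. At least 2-fold lower were 8 of the 47 with drug (12 under median scaling), against 1.16% of all genes, and 0 without. Nuf2, a kinetochore protein that holds microtubules, had 580.9 at 24 h and 1534.9 at 12 h with drug, 1420.2 and 2054.0 at 24 h and 12 h without drug, 1249.3 with SP600125 alone and 1655.3 in untreated cells. It differed by -1.40 with drug and -0.53 without. Ccnb2, the mitotic cyclin B2, had 2502.3 and 5610.4 at 24 h and 12 h with drug, 2969.4 and 5389.9 at 24 h and 12 h without drug, 4009.9 with SP600125 alone and 3497.3 in untreated cells. Both 24 h arrays were below all 4 other arrays in Ccnb2, and limma gave -1.01 ± 0.13 with an adjusted p of 0.0531, short of the threshold. Mad2l1, a spindle checkpoint protein, had 1683.9 and 3665.0 at 24 h and 12 h with drug, and 2725.9 and 4447.0 without drug. Kif20a at -1.17, Cdca3 at -1.11, Aurkb and Kifc1 at -1.10 and Ndc80 at -1.08 were the others past 2-fold with drug, and only Kifc1 of the 8 was not below 0 without drug, at 0.12.

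Many promoters of the list hold 2 motifs that the measurements did not use, the CHR element (TTTGAA) and the CCAAT box, both searched on either strand from 250 bases before to 50 after the start in RefSeq sequence of GRCm38.p6. Of the 40 G2/M genes with a promoter given, 30 (75.0%) held the CHR letters, against 17.8% of 26794 promoters, and 34 (85.0%) held CCAAT, against 38.1%. The promoter of Ccnb2 (chr9:70421505-70421804, minus strand) is shown as one of a gene with both, 3 CCAAT and 2 CHR matches in capitals, and that of Mad2l1 (chr6:66534971-66535270, plus strand) as one of a gene with 0 of either in this window whose difference with drug was -1.12, against -1.16 for Ccnb2. A match is a description of the letters and not of binding.
Ccnb2: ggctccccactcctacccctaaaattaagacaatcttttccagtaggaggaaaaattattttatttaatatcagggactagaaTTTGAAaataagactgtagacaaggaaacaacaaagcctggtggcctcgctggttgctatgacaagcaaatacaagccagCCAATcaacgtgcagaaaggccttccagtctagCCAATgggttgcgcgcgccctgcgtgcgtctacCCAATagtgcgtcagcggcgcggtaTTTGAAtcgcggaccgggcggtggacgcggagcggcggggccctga
Mad2l1: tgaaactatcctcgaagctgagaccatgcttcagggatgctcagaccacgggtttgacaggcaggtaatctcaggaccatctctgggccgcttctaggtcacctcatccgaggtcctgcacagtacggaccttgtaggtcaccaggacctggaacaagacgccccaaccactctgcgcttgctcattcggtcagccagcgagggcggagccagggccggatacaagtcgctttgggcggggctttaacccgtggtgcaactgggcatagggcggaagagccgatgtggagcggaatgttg

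Genes of G1/S and DNA replication were lower too. Of 44 genes, 42 were below 0 with drug and 39 without, with medians of -0.66 and -0.29, and 40 of the 44 had the lower value with drug, against 6030 of 13059 over all genes. The difference between settings was not tested. At least 2-fold lower were 7 with drug, against 1.16% of all genes, and 0 without. Uhrf1, which brings DNA methyltransferase to newly copied DNA, had 1100.8 at 24 h and 2692.9 at 12 h with drug, 2718.2 and 3783.8 at 24 h and 12 h without drug, 2534.2 with SP600125 alone and 4313.9 in untreated cells. Cdc6, which loads the replicative helicase, had 606.4 and 1420.4 at 24 h and 12 h with drug, 1724.5 and 2220.8 at 24 h and 12 h without drug, 1513.6 with SP600125 alone and 2557.4 in untreated cells. In both genes the 24 h array with drug was the lowest of the 6, at -1.29 and -1.23 against its 12 h array, and the other Uhrf1 probe set gave -1.86. Rrm1 at -1.11 and Rrm2 at -1.05, the subunits of ribonucleotide reductase, Prim1 at -1.07 and Pola1 at -1.04, of the primase complex, and the helicase subunit Mcm5 at -1.04 were the others past 2-fold. E2F letters (TTTCGCGC or TTTGGCGC, either strand) were in 10 of the 37 G1/S promoters given (27.0%), against 0.84% of all.

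Read from second-brightest probe sets, the cell-cycle medians with drug kept their sign and most of their size. Over 34 G1/S genes with such a probe set the median was -0.63, against -0.61 from the brightest probe sets of the same genes, and over 31 G2/M genes it was -0.59 against -0.69. Immediate-early genes had 0.38 against 0.59 over 10 genes, NF-κB targets 0.48 against 0.55 over 10, and p53 targets 0.25 against 0.43 over 10. Of the 94 genes past 2-fold whose brightest and second-brightest probe sets were both above the floor on both arrays, 78 had the same sign by both, 46 of 57 higher (80.7%) and 32 of 37 lower (86.5%), against 62.1% over all 4667 such genes. Across those genes the probe sets correlated at r = 0.370 with drug, 0.325 without drug and 0.517 in SP600125 alone against untreated. The log2 difference of 24 h minus 12 h was lower by the second-brightest than by the brightest probe set, by a median of 0.07 with drug and 0.01 without. Called from second-brightest probe sets alone, 101 genes were higher and 177 lower with drug, the reverse of the main balance, while without drug 74 were higher and 57 lower.

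**Figure D4:**
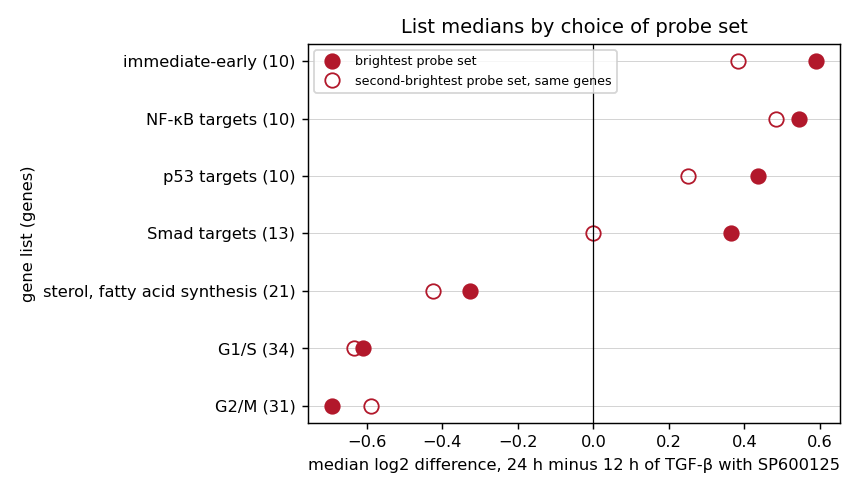
Median log2 difference of 24 h minus 12 h of TGF-β with SP600125 for 7 gene lists, read from the brightest (filled) and the second-brightest (open) probe set of the same genes, 1 array a side. Both readings lie on the same side of 0 except for Smad targets, at 0.36 and 0.00.

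Lipid synthesis genes were lower with drug in this pair. The list of 31 genes covers sterol and fatty acid synthesis, whose transcription SREBP factors drive, along with genes of its control and of transport. Among the latter are the sterol exporter genes Abca1 and Abcg1, at 0.25 and -0.33 with drug. Of the 31 genes 27 were below 0 with drug and 19 without, with medians of -0.39 and -0.08. The lower value was with drug in 27 of the 31, against the same 6030 of 13059. In SP600125 alone against untreated cells 27 of 31 were below 0, with a median of -0.63. Past 2-fold with drug were 2 of the 31, Idi1 and Scd1, both lower, against 1.16% of all genes. Idi1, an isomerase of the isoprenoid pathway, had 2555.2 at 24 h and 5441.1 at 12 h with drug, 7066.5 and 8133.4 at 24 h and 12 h without drug, 3754.2 with SP600125 alone and 7557.7 in untreated cells. Scd1, which desaturates fatty acids, had 796.7 and 1629.9 at 24 h and 12 h with drug, 4081.4 and 4866.2 at 24 h and 12 h without drug, 1662.7 with SP600125 alone and 6129.2 in untreated cells. The 3 drug arrays were the lowest 3 in both genes, with the 24 h one lowest. Other probe sets gave -0.90 for Idi1 and -1.25 for Scd1, and second-brightest probe sets of 21 genes had a median of -0.42.

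Among the other lowest genes, Nme1, a nucleoside diphosphate kinase and MYC target, had 6632.8 on the 24 h and 17585.0 on the 12 h drug array, against 14506.6 to 18155.3 on the other 4 arrays, but its other probe set gave -0.37 where the brightest gave -1.41. Dus2, a tRNA dihydrouridine synthase, was the lowest of all at -2.25, with 87.8 at 24 h and 418.8 at 12 h, and its other probe set gave -0.29. Phf6, a chromatin-associated protein, was at -1.67, with -0.37 and -0.28 by its other probe sets. The kinetochore gene Kntc1 was at -1.49 and the mitotic gene Pimreg at -1.43. Mrnip, Lrrc49, Alg6, Sdc3, Ttyh3, Xk, Brms1, 2610318N02Rik, Agbl3 and Rbmx lay between -1.60 and -1.40. Other probe sets gave -0.63 for Mrnip, -0.02 for Alg6, -0.54 for Sdc3, 0.82 for Xk, 0.063 for Brms1, and -0.083 and 0.031 for Rbmx. Of the 15 lowest genes, those with another probe set thus all had a smaller difference by it, or one of the other sign. At the floor at 24 h were 9530082P21Rik, Arhgef25, 6030468B19Rik, Pcsk6 and Bsn, with differences to the floor of -1.66 to -1.93, and other probe sets gave 0.41 for Arhgef25 and -0.93 and -0.17 for Bsn.

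Several programmes differed little. B cell identity genes had a median of 0.01 with drug and 0.23 without, MHC class II genes -0.07 and 0.28, respiratory chain genes -0.18 and -0.16, MYC and ribosome biogenesis genes 0.06 and -0.05 and cytosolic ribosomal protein genes 0.13 and 0.01. The ribosomal list also held the mitochondrial Mrpl23, at -0.09 with drug. None of these 5 lists had a member past 2-fold in either setting. MHC class II genes had the lower value with drug in 13 of 14 genes, against 6030 of 13059 over all genes. Among chromatin enzymes, 3 of 29 were at least 2-fold higher with drug, against 1.85% of all genes. They were the DNA methyltransferase Dnmt3a at 1.24, the H3K27 demethylase Kdm6b at 1.17 and the H3K4 methyltransferase Setd1a at 1.02. The maintenance methyltransferase Dnmt1 was at -0.98. By second-brightest probe sets of 19 chromatin enzymes, 1 was at least 2-fold higher and 2 at least 2-fold lower with drug. Over all 5939 genes read that way, 101 were higher and 177 lower. The aryl hydrocarbon receptor gene Ahr had 683.5 at 24 h and 272.5 at 12 h with drug, and 451.2 and 254.2 at 24 h and 12 h without drug. Ahr thus differed by 1.33 with drug and 0.83 without.

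**Figure D5:**
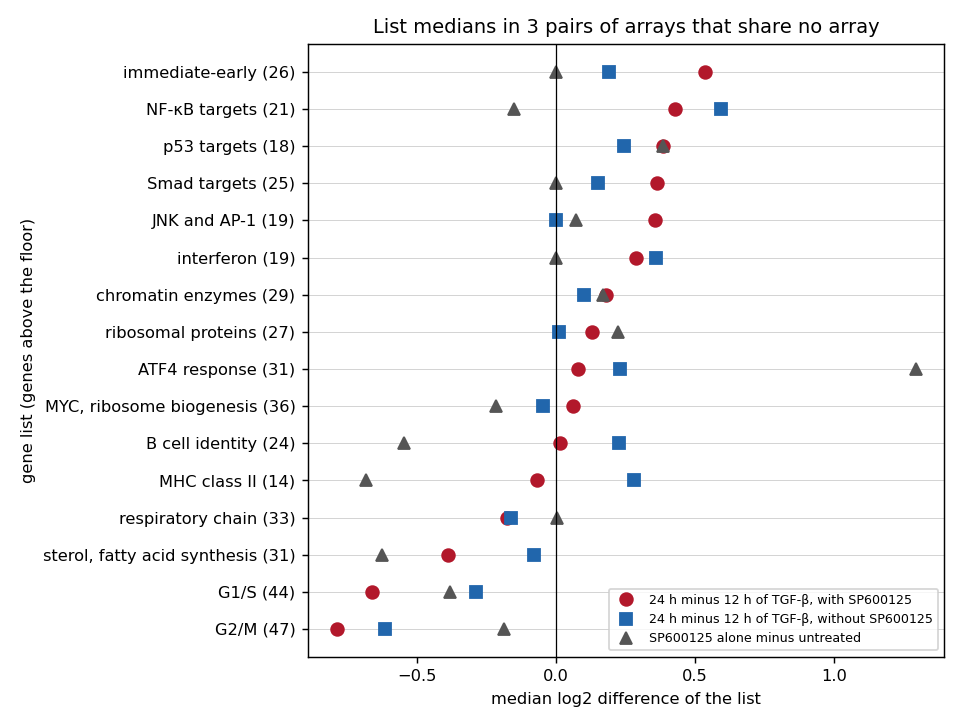
Median log2 difference of 16 gene lists in 3 pairs of arrays that share no array: 24 h minus 12 h of TGF-β with SP600125 (circles), the same without SP600125 (squares), and SP600125 alone minus untreated (triangles). Mitosis and replication lists lie lowest of the 16 in both TGF-β pairs, at -0.79 and -0.66 with drug, and the ATF4 list stands at 1.29 in SP600125 alone, against 0.08 and 0.23 in the TGF-β pairs.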

How the data were processed

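Total RNA of 6 samples was labelled and hybridised to 1 array each, per the labels' protocols. The deposited values are linear intensities, produced by GCOS 1.2 according to the submitters' processing notes, with settings not given in the sources used here. The 2% trimmed mean was 500.0 on every array, and array medians differed by up to 1.17 times, so the intensities were used as deposited. Of 45101 probe sets 34958 had 1 gene symbol, 932 several and 9211 none, and the gene identifiers of 34754 were found in the RefSeq table, which updated 0 symbols. The 64 control probe sets stood for no gene. The brightest probe set stood for each of 18193 genes. Signals under 74.2 were set to that floor, so differences of dim genes are understated and those from or to the floor are bounds ("at least"). Calls needed a 2-fold difference. "Rose" and "fell" are kept for limma calls.

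limma 3.58.1 in R 4.3.3 fitted TGF-β state and drug to log2 signals of 11730 genes that exceeded the floor on 2 or more arrays, with an intensity trend, 2 residual and 5.96 prior degrees of freedom and Benjamini-Hochberg adjustment at 0.05. Residuals from additivity are its only error term, so a p-value here speaks of the scatter of these 6 arrays and not of repeated cultures. The fit was also run on simulated data that were additive by construction. That run cannot speak of departures from additivity in these arrays. Named genes were the 15 highest and 15 lowest above the floor on both arrays, the 5 largest bounds each way, and up to 4 members of a described list plus those its description needs. The 37 lists held 898 genes, 829 of them found. The members and lists were chosen with earlier results of these data known, and 1 mismatched list entry was dropped after the data were seen. Other mismatched entries stayed in, such as Mrpl23 among cytosolic ribosomal proteins and Pigq among glycolysis genes. Alternatives were 2 other scalings, other floors, other probe set rules and left-out arrays.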

Additional observations from a re-analysis of the deposited data

Results flagged for a closer look

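The 18S ribosomal RNA control is outside the gene measurements, and its 3′ signal of 5878.2 on the 24 h array with SP600125 was 6.94 times the 846.6 of the 12 h array with SP600125 and above all 5 other arrays. Arhgef25 moved in opposite directions: its log2 difference of 24 h minus 12 h was -1.89, to the floor, with SP600125 (66.2 at 24 h and 275.8 at 12 h) and 1.02 without (209.8 at 24 h and 103.2 at 12 h). The difference between the settings was not tested, and the second-brightest Arhgef25 probe set gave 0.41 with drug.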

How the results depend on the processing

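With 1 array a side no setting can show the spread between cultures. Counts past 2-fold depended on the floor: 1538 genes higher and 1076 lower with the floor at the 25th percentile, 52 and 37 at the 75th percentile and 2381 and 1762 without a floor. The mean of all probe sets gave 126 and 93, and the second-brightest probe set, an alternative chosen after seeing the data, gave 101 and 177. The second-brightest probe set turned the sign of the difference with drug in Cfap61 (-0.28), Xk (0.82), Brms1 (0.063), Rbmx (0.031), Arhgef25 (0.41) and Irf4 (-0.36). Only named genes and the most changed list members past 2-fold were searched for such turns. The limma calls moved as well: 18 risen and 15 fallen under quantile normalization, 12 and 16 with the floor at the 25th percentile, 58 and 81 at the 75th percentile, 59 and 73 without a floor, and 0 and 0 when probe sets were averaged (821 and 750 at an unadjusted p under 0.05). Leaving out any 1 of the 6 arrays gave 0 risen and 0 fallen (458 to 945 and 410 to 749 unadjusted), so H2ac19 and Ms4a6c were lost, and the 4 TGF-β arrays alone gave 0 and 0 (948 and 741 unadjusted). The cause of these shifts was not tested. Among single genes and list values, 1779 alternative values kept the side of the 2-fold limit (genes) or stayed near the main value (lists). List values moved in 113 cases, and gene values dropped under the 2-fold limit in 109 and passed it in 33. A change of sign was counted only for genes past 2-fold and for larger list medians, and there were 6. Smaller values that crossed 0 were not counted as changes of sign. No paired analysis was possible because each group has 1 array and so no replicate numbers to pair, beyond the drug setting that is already a term of the limma model.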

Other observations

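Small nucleolar RNA host gene Snhg12 had 1812.3 at 24 h and 648.9 at 12 h with SP600125, 524.3 and 342.4 at 24 h and 12 h without drug, 1151.6 with SP600125 alone and 512.0 in untreated cells, so that it was at 1.48 with drug and 0.61 without. In all, 11 of the 13059 genes were at least 2-fold different in opposite directions in the settings with and without drug. With drug 5 of them were higher and 6 lower. All but Ccdc102a had a signal under the floor on at least 1 array of these settings. Adamtsl2, for example, had 27.1 at 12 h with drug and 19.4 at 24 h without drug. Chaperones of the endoplasmic reticulum had the higher value with drug than without in 20 of 24 genes, against 6655 of 13059 over all genes, with medians of 0.12 and -0.21.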
